A study of Mus musculus with 21 samples.

Results

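The octamer TGATGCAA joins the half-site of the CRE and ATF factors (TGA) to the half-site of the C/EBP factors (GCAA) and has a TpG step at its centre. It is the core of the C/EBP-ATF response element, known as CARE or the amino acid response element. This octamer, its reverse complement TTGCATCA and the 24 sequences at exactly 1 mismatch from each were taken by sequence, with no filter on their readings. These sequences were chosen with earlier results of these data known. They make 50 of the 65535 sequences of 8 bases (8-mers) with a deposited Z-score, and all 50 were present. The data were 21 protein binding microarrays, on which a tagged protein is bound to double-stranded DNA probes and read by fluorescence. Each array held 40330 spots with 35 variable bases, and each member was carried by 14 to 21 different probes (median 18).

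The proteins were DNA-binding domains of the basic leucine zipper (bZIP) factors CEBPB and CREB1, each also as a point mutant, with an N-terminal GST tag and made by in vitro transcription and translation. CEBPB(V285A) carries alanine in place of valine in the DNA-contacting basic region, and CREB1(A297V) carries the opposite exchange. The strand copied onto each array held 1 of 3 bases at its C positions: 5-hydroxymethylcytosine (5hmC), 5-methylcytosine (5mC) or plain cytosine (C). Thus the modified base lay on 1 strand only and at every C that was copied. There were 2 arrays for CEBPB(V285A) on 5hmC, 2 on 5mC and 2 on C. CREB1(A297V) had 4 on 5hmC, 2 on 5mC and 2 on C. CEBPB had 2 on 5hmC and was not analysed here on the other forms. CREB1 had 2 on 5hmC, 1 on 5mC and 2 on C. Every array was bound with 1 protein alone, so no reading is of a C/EBP-ATF heterodimer, and none is of a full-length protein. Whether replicate arrays used different protein batches is not stated in the labels, and each p-value measures only how these arrays spread.

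bZIP proteins bind DNA as dimers, with 1 basic region on each half-site. C/EBP homodimers are known for the palindrome of 2 GCAA half-sites, and CREB1 homodimers for the palindrome with CpG at its centre that joins 2 TGA half-sites. In cells the composite octamer is known as a site of heterodimers of a C/EBP protein with ATF4, through which amino acid shortage and endoplasmic reticulum stress raise the transcription of genes of amino acid supply and of the stress response.

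Members are written from 5′ to 3′ on the copied, modified strand, and "forward" means that TGATGCAA or its mismatch is on that strand. "Reverse" means that TTGCATCA or its mismatch is on that strand, so the same double helix carries the modified base on the other strand. TGATGCAA holds 1 C and TTGCATCA holds 2, so the orientations differ in the number and place of modified bases as well as in strand. A token such as T4C gives the base of the octamer, its position from 1 at the 5′ end of the modified strand, and the base of the mismatch. The members on which the results turn are shown with the mismatched base in capitals.
Forward octamer: TGATGCAA
Forward T1C, with a CpG at its first bases: Cgatgcaa
Forward G2T, a C/EBP site with the same GCAA: tTatgcaa
Forward T4C, the CpG version of the composite: tgaCgcaa
Forward C6A, with no C on this strand: tgatgAaa
Forward C6G, with no C on this strand: tgatgGaa
Forward C6T, with no C on this strand: tgatgTaa
Reverse octamer: TTGCATCA
Reverse G3A, complement of forward C6T: ttAcatca
Reverse A5G, complement of forward T4C: ttgcGtca
Reverse T6A, with the C/EBP half-site TTGC followed by AA: ttgcaAca
Reverse C7A, complement of forward G2T: ttgcatAa
Of the 50 members 6 hold a CpG and 3 hold no C on the modified strand. The orientation rests on reading the deposited probe sequences as the printed, unmodified strand from 5′ to 3′, which was assumed and not tested.

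The same octamer stands in promoters of known target genes of this pathway, which is where its sequence context can be read. In RefSeq promoter windows of mouse (GRCm38.p6, 250 bases before to 50 after each start), 294 of 32851 windows (0.895%) held TGATGCAA on either strand. The CpG version TGACGCAA was in 161 windows (0.490%). The C6A mismatch TGATGAAA was in 335 windows (1.02%). Of 20 genes of the amino acid and stress response, listed from general knowledge, 18 had a window and 7 of these held the octamer. Of the mismatches only T4C and C6A were looked for in these genes, and 2 and 1 of the genes held them. The sites are printed as they run along the gene's own strand, with the octamer in capitals.
Atf3, a stress-induced bZIP factor, chr1:191183430-191183449, gene on the minus strand: tcgcacTTGCATCAccaagt
Chac1, an enzyme that breaks down glutathione, chr2:119351043-119351062, plus strand: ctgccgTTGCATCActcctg
Vldlr, a lipoprotein receptor, chr19:27216814-27216833, plus strand: caatagTTGCATCAgcgctc
Slc7a11, the cystine transporter, first site along the gene, chr3:50443666-50443685, minus strand: tgtggcTGATGCAAacctgg
Slc7a11, next site, chr3:50443647-50443666, minus strand: gagaatTTGCATCAtcatgc
Herpud1, a protein of endoplasmic reticulum quality control, chr8:94386311-94386330, plus strand: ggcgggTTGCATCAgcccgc
Nupr1, a small stress-induced chromatin protein, chr7:126625567-126625586, minus strand: gccagaTTGCATCAgacagg
Fgf21, a hormone of fasting, chr7:45615616-45615635, minus strand: cccccaTTGCATCAtccgtc
Asns, asparagine synthetase, with the C6A mismatch in capitals, chr6:7693219-7693238, minus strand: gccacaTGATGAAActtccc
Slc7a11 holds the octamer on each strand, at neighbouring positions. Chac1 and Herpud1 also hold the T4C mismatch within the same window. A match is a description of the letters and not evidence of binding, and a window without one says only that these letters are not in it.

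Levels are given as the authors' Z-score, which is read relative to the other 8-mers of the same array. It is not a rank and is not scaled between arrays. The highest Z-score of an array lay between 15.7 and 256. The median spot was 0.960 to 5.85 times its local background, and 3 of the 4 arrays of CREB1(A297V) on 5hmC had 25.1% to 56.1% of spots at or below background. The file number under which an array was deposited differs between most groups that are compared. All arrays of CREB1 on 5hmC carry 1 number and all of CREB1 on C another, and the 3 cytosine forms of CEBPB(V285A) carry 3 different numbers. For these comparisons the cytosine form and the file number cannot be told apart. The same holds for the protein wherever proteins under different file numbers are compared. The differences between orientations and between mismatches within 1 group are read within each array and do not cross file numbers. A shift of such a difference between cytosine forms does cross them, except for 5mC against C in CREB1 and in CREB1(A297V).

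CREB1 on 5hmC gave its highest Z-score of all 65535 8-mers to the forward composite octamer, on both arrays. TGATGCAA had Z-scores of 141 and 171 in CREB1 on 5hmC, 42.4 in CREB1 on 5mC, and 1.69 and 4.10 in CREB1 on C. The groups did not overlap, and in rank the octamer stood at 1 and 1 on 5hmC, 9 on 5mC, and 7102 and 1227 on C. In the signal itself, the median probe with the octamer was 22.3 and 28.9 times the array's median spot on 5hmC, 5.58 times on 5mC, and 1.34 and 1.37 times on C. The rise on 5hmC over C was 153 Z (SE 9.97, limma on all 8-mers, adjusted p = 5.0e-09). It passed the test under every alternative that was run, and on background-corrected log2 intensities it was 31.6-fold (adjusted p = 3.1e-08). The rise on 5hmC over 5mC was 114 Z (SE 12.2, limma adjusted p = 1.5e-05), a call that was lost on the asinh scale (adjusted p = 0.15) and after quantile normalization (adjusted p = 0.082). The difference of 39.5 Z between 5mC and C (SE 12.2) was not called in this fit (limma adjusted p = 0.19). It was called among only the 9 arrays that share a file number (adjusted p = 1.9e-07) and on the log2 intensities, where it was 8.74-fold (adjusted p = 0.0030). The single 5mC array has no spread of its own, so these p-values do not test that array.

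The reverse octamer did not share in this. TTGCATCA had Z-scores of 1.26 and 1.52 in CREB1 on 5hmC, 0.969 on 5mC, and 2.44 and 2.58 on C. It was thus low on every form, and neither 5hmC against C (-1.12 Z, limma adjusted p = 0.48) nor 5mC against C (-1.54 Z, limma adjusted p = 0.86) was called.

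CEBPB(V285A), the mutant with the alanine of CREB1, also had the forward octamer among its highest 8-mers on both modified forms. TGATGCAA had Z-scores of 110 and 84.0 on 5hmC, 207 and 202 on 5mC, and 42.0 and 47.6 on C in CEBPB(V285A). The 3 groups did not overlap and 5mC was the highest. Its ranks were 6 and 5 on 5hmC, 3 and 7 on 5mC, and 83 and 34 on C. The rise on 5mC over C was 160 Z (SE 9.97, limma adjusted p = 7.9e-11), and 3.80-fold on the log2 intensities (adjusted p = 0.011). It was lost after quantile normalization (50.9 Z, adjusted p = 0.10). On 5hmC the octamer was 52.2 Z above C (SE 9.97, limma adjusted p = 0.0013), a call that ended on 3 other scales. On log2 intensities it was 1.12-fold (adjusted p = 0.86), with adjusted p = 0.30 on the asinh scale and 0.14 after quantile normalization. Between the modified forms 5hmC was the lower (difference -107 Z, limma adjusted p = 9.3e-08), which was not called on the asinh scale or after quantile normalization.

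The reverse octamer moved the other way in this mutant. TTGCATCA had Z-scores of 4.30 and 4.09 on 5hmC, 5.20 and 5.52 on 5mC, and 17.0 and 14.6 on C in CEBPB(V285A). The modified arrays all lay below those on C. It fell by 11.6 Z on 5hmC (SE 0.920, limma adjusted p = 1.1e-08) and fell by 10.5 Z on 5mC (SE 0.920, limma adjusted p = 2.1e-08). Both falls were lost on the asinh scale (adjusted p = 0.051 and 0.16).

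CREB1(A297V), the mutant with the valine of CEBPB, had low values of the octamer on each form. TGATGCAA had Z-scores of 3.30, 2.27, 0.281 and 4.21 on 5hmC, 3.83 and 2.12 on 5mC, and 2.09 and 2.66 on C in CREB1(A297V). The groups overlapped. Neither 5hmC (0.141 Z above C, SE 8.63, limma adjusted p = 0.996) nor 5mC (0.600 Z above C, SE 9.97, limma adjusted p = 0.993) was called. Both SEs are shared with groups of far higher readings and exceed every reading of the octamer in CREB1(A297V). This fit thus could not call a change within the range of those readings. The arrays of CREB1(A297V) did bind other sites: the PAR palindrome TTACGTAA reached 15.7 to 24.7 on the 4 arrays on 5hmC.

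Wild-type CEBPB was analysed here on 5hmC only. TGATGCAA had Z-scores of 19.2 and 5.66, ranks 12 and 169, and TTGCATCA had 2.66 and 3.13. The 2 arrays lay far apart at the forward octamer, while the C/EBP palindrome TTGCGCAA read 34.4 and 35.9 on them.

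Set side by side on 5hmC, the Z-scores of the forward octamer were higher in the proteins with alanine in the basic region than in those with valine, on a score that is not scaled between arrays. In CEBPB, which has valine, the octamer was still above all 24 of its mismatches on replicate 1 and above 22 on replicate 2, and its median probe was 4.23 and 1.71 times the array's median spot. CEBPB(V285A) averaged 97.0 ± 18.3 and its wild type CEBPB 12.4 ± 9.59 (SD, n = 2 each), a rise of 84.5 Z (limma adjusted p = 2.1e-05, lost after quantile normalization at adjusted p = 0.27). CREB1(A297V) averaged 2.51 ± 1.69 (SD, n = 4) and its wild type CREB1 156 ± 20.6 (SD, n = 2), a difference of -153 Z (limma adjusted p = 1.9e-10). CEBPB was below CREB1 (difference -144 Z, limma adjusted p = 1.3e-08), and both belong to the same file number. The last 2 differences were called under every alternative that was run. Of the proteins compared here, only CEBPB and CREB1 on 5hmC share a file number. In the other comparisons of this paragraph the protein and the file number cannot be told apart. The 4 arrays of CREB1(A297V) on 5hmC do not all carry the same number. CEBPB(V285A) was also below CREB1 (difference -59.0 Z, limma adjusted p = 7.8e-04), a call lost on the asinh scale, after quantile normalization and without replicate 2 of CREB1 on 5hmC (-44.4 Z, adjusted p = 0.17). On C, CEBPB(V285A) averaged 44.8 ± 4.00 and CREB1 2.89 ± 1.71 (SD, n = 2 each), a rise of 41.9 Z (limma adjusted p = 0.038). That call was lost in 10 of the 21 fits that left out 1 array (any array of CREB1, CEBPB(V285A) on C or 5mC, or replicate 3 of CREB1(A297V) on 5hmC), with the replicate number as a block (adjusted p = 0.090), with file numbers as a random block (adjusted p = 0.47), with a minimum of 8 probes (adjusted p = 0.080) and after quantile normalization. On log2 intensities it was 7.78-fold (adjusted p = 0.0020). On 5mC, CEBPB(V285A) was 162 Z above the CREB1 array (limma adjusted p = 8.5e-09). That call was lost on the asinh scale, on log2 intensities (3.39-fold, adjusted p = 0.10) and after quantile normalization.

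The difference between both orientations of the octamer is read within each array. TGATGCAA minus TTGCATCA was 140 and 169 Z on the arrays of CREB1 on 5hmC, 41.4 on 5mC, and -0.751 and 1.52 on C. The 2 arrays on C lay on either side of 0 and all modified arrays were far above. In CEBPB(V285A) the difference was 106 and 80.0 Z on 5hmC, 202 and 196 on 5mC, and 24.9 and 33.0 on C. It was positive on all 6 arrays of this mutant and again larger on the modified forms. In CREB1(A297V) it ran from 0.393 to 2.70 on 5hmC, and was 1.85 and 1.90 on 5mC, and 1.07 and 1.36 on C. In CEBPB on 5hmC it was 16.6 and 2.53, so the 2 arrays agreed in sign and not in size.

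The fit for such pairs used a mean-variance trend, and for this pair, far above nearly all others, the trend gave an SE of 887 Z in groups of 2 arrays. No call passed with it in any of the 10 groups. The values that follow for the octamer pair are therefore from the same limma fit without the trend (SE 4.91 with 2 arrays), an alternative chosen after seeing the data. The forward orientation was higher by 155 Z in CREB1 on 5hmC (limma adjusted p = 7.0e-14) and by 41.4 Z on 5mC (SE 6.95, adjusted p = 0.0013). In CEBPB(V285A) it was higher by 92.8 Z on 5hmC (limma adjusted p = 4.2e-10), by 199 Z on 5mC (adjusted p = 6.2e-17) and by 29.0 Z on C (adjusted p = 7.3e-04). The difference was not called in CREB1 on C (0.384 Z, limma adjusted p = 0.97) or in CEBPB on 5hmC (9.55 Z, adjusted p = 0.23). On log2 intensities, whose trend gave no such SE, the same pair differed 45.1-fold in CREB1 on 5hmC and 14.3-fold on 5mC, and 10.2-fold in CEBPB(V285A) on 5hmC, 29.8-fold on 5mC and 2.69-fold on C, all called. There CEBPB on 5hmC was called too (2.42-fold, limma adjusted p = 0.047). The shift of this difference from C was 154 Z on 5hmC (adjusted p = 5.2e-11) and 41.1 Z on 5mC (limma adjusted p = 0.021) for CREB1. For CEBPB(V285A) it was 63.8 Z on 5hmC (adjusted p = 9.9e-06) and 170 Z on 5mC (limma adjusted p = 5.0e-13). The 5hmC shift of CEBPB(V285A) was 3.80-fold on log2 intensities and was not called there (adjusted p = 0.071).

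Across all 25 pairs of complementary members the forward orientation was called higher in 15 and the reverse in 0 for CREB1 on 5hmC, where 12.0% of all 32230 pairs were called in either direction. In CREB1 the counts were 7 and 0 on 5mC (6.99% of all pairs), and 1 and 2 on C (19.7%). In CEBPB(V285A) they were 14 and 0 on 5hmC (10.3%), 17 and 1 on 5mC (18.2%), and 1 and 3 on C (10.8%). In CREB1(A297V) they were 3 and 2 on 5hmC (18.3%), 1 and 0 on 5mC (15.0%), and 0 and 0 on C (18.1%), and in CEBPB on 5hmC 0 and 0 (9.11%). Those 2 counts of 0 stand beside 4 pairs each at an unadjusted p under 0.05, and beside 10 and 7 calls on log2 intensities. The octamer pair is counted as not called in each of these, for the reason just given.

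The shift of orientation from C was called in 12 of 25 pairs for CREB1 on 5hmC (15.5% of all pairs), all toward the forward member. For CREB1 on 5mC it was called in 1 pair (0.732%), for CEBPB(V285A) on 5mC in 17 (5.24%) and on 5hmC in 9 (3.81%), again all toward the forward member. For CREB1(A297V) the limma fit called none on 5hmC (0.617% of all pairs) or on 5mC (0.0310%), with 3 and 1 at an unadjusted p under 0.05, while the fit on log2 intensities called 6 and 1. The 3 largest of the 24 mismatch shifts in CEBPB(V285A) on 5mC were those of T4C (233 Z, limma adjusted p = 3.5e-04), G2T (182 Z, adjusted p = 9.2e-06) and T1C (91.1 Z, adjusted p = 3.6e-15). The first was not called when the arrays on C lost replicate 1 (limma adjusted p = 0.091).

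T4C, which replaces the central TpG by CpG, was the highest forward mismatch in 6 of the 10 groups and the next highest in the other 4. It keeps GCAA and TGA intact, and in the CREB family the CpG form of the step is the one known for binding. TGACGCAA had Z-scores of 70.1 and 82.8 in CREB1 on 5hmC, 58.2 on 5mC, and 16.8 and 20.4 on C. On C and 5mC it lay above the octamer on every CREB1 array, and on 5hmC below it on both. The difference of T4C minus the octamer was -79.6 Z in CREB1 on 5hmC (SE 6.52, limma adjusted p = 5.6e-08), 15.8 Z on 5mC (SE 9.22, adjusted p = 0.41) and 15.7 Z on C (limma adjusted p = 0.13). On log2 intensities the difference was 2.12 (log2) on C (limma adjusted p = 1.6e-10) and -1.05 (log2) on 5hmC (adjusted p = 2.1e-05). The call on 5hmC was lost on the asinh scale (adjusted p = 0.25). In CREB1 the difference on 5hmC minus that on C was -95.3 Z (SE 9.22, limma adjusted p = 1.8e-06), a test added after seeing the data. It was called on the asinh scale (adjusted p = 0.020) and on log2 intensities (adjusted p = 6.6e-10) too. Among all single-substitution pairs 3.92% were called for that change. For 5mC against C it was 0.0840 Z (SE 11.3, limma adjusted p = 1.00), but -1.74 on log2 intensities (adjusted p = 0.0012).

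In CEBPB(V285A), T4C had Z-scores of 42.0 and 60.7 on 5hmC, 237 and 205 on 5mC, and 60.8 and 54.6 on C. It lay above the octamer on all 4 arrays on 5mC and C, and below it on both on 5hmC. T4C minus the octamer was -45.6 Z on 5hmC (SE 6.52, limma adjusted p = 7.0e-05, but 0.31 on the asinh scale), 16.9 Z on 5mC (adjusted p = 0.081) and 12.9 Z on C (limma adjusted p = 0.20). The difference on 5hmC minus that on C was -58.5 Z (limma adjusted p = 2.5e-04), called on log2 intensities (adjusted p = 3.7e-04) but not on the asinh scale (adjusted p = 0.51). The difference on 5mC minus that on C was 4.00 Z (limma adjusted p = 0.94). These changes were called in 6.45% of all pairs for 5hmC and in 7.12% for 5mC. T4C itself rose by 164 Z on 5mC over C (limma adjusted p = 6.2e-10), a call lost on log2 intensities (adjusted p = 0.0585) and after quantile normalization (54.6 Z, adjusted p = 0.068), and differed by -6.36 Z on 5hmC (limma adjusted p = 0.83).

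The reverse complement of that member was lower on both modified forms than on C. Reverse A5G, TTGCGTCA, had Z-scores of 4.53 and 1.04 on 5hmC, 16.8 and 15.2 on 5mC, and 93.1 and 77.2 on C in CEBPB(V285A). All modified arrays lay below those on C. It fell by 82.3 Z on 5hmC (SE 4.38, limma adjusted p = 2.9e-11) and fell by 69.1 Z on 5mC (SE 4.38, limma adjusted p = 9.8e-11). In CREB1 it read 1.24 and 0.982 on 5hmC, 2.37 on 5mC, and 12.4 and 23.4 on C. The fall on 5hmC was called (difference -16.8 Z, limma adjusted p = 0.019, lost with file numbers as a random block at 0.19) and the difference on 5mC was not (-15.5 Z, limma adjusted p = 0.30), although it was on log2 intensities (4.00-fold lower on 5mC, adjusted p = 3.5e-04). The call on 5hmC was also lost when CREB1 lost replicate 1 or 2 on 5hmC (limma adjusted p = 0.14 each) or replicate 2 on C (difference -11.3 Z, adjusted p = 0.22). On C the 2 orientations of this site were level in CREB1 (forward minus reverse 0.735 Z). In CEBPB(V285A) on C the forward one was the lower (difference -27.4 Z, adjusted p = 0.0012 without the trend and 0.57 with it).

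G2T turns the composite into TTATGCAA, a C/EBP-like site with the same GCAA and no TGA. TTATGCAA had Z-scores of 228 and 125 in CEBPB(V285A) on 5hmC, 181 and 191 on 5mC, and 31.6 and 28.3 on C. It was the highest of all 8-mers on both 5hmC arrays, which themselves differed widely. G2T was 79.6 Z above the octamer on 5hmC (SE 9.25, limma adjusted p = 6.1e-06, not called on the asinh scale at 0.36), and -18.6 Z on 5mC (adjusted p = 0.18) and -14.8 Z on C (limma adjusted p = 0.31) from it. That SE is shared by all groups, while G2T alone had an SD of 72.4 Z over the 2 arrays of CEBPB(V285A) on 5hmC. The p-value on 5hmC therefore does not measure the spread of those 2 arrays. In CREB1 the same mismatch read 20.4 and 34.7 on 5hmC, 18.3 on 5mC, and 0.582 and -0.0275 on C. On 5hmC it was below the octamer by a wide margin (difference -128 Z, limma adjusted p = 8.8e-09). The rise of G2T over C in CEBPB(V285A) was 147 Z on 5hmC (limma adjusted p = 1.4e-05) and 156 Z on 5mC (limma adjusted p = 3.8e-06, lost after quantile normalization at 0.17). Its complement, reverse C7A, had 29.9 and 44.8 on 5hmC, 27.7 and 34.0 on 5mC, and 58.9 and 55.3 on C in CEBPB(V285A). That member fell by 19.8 Z on 5hmC (limma adjusted p = 0.011) and fell by 26.2 Z on 5mC (limma adjusted p = 6.0e-04), and both calls were lost on the asinh scale. The fall on 5mC was also not called after quantile normalization (difference -15.8 Z, limma adjusted p = 0.31), nor that on 5hmC with file numbers as a random block (adjusted p = 0.10). The first of these falls turned to 10.0 Z above C after quantile normalization, where it was not called, and it was not called without replicate 1 on 5hmC (-12.3 Z, limma adjusted p = 0.13).

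T1C puts a CpG at the start of the octamer and breaks the TGA half-site. CGATGCAA had Z-scores of 27.7 and 13.7 on 5hmC, 88.6 and 101 on 5mC, and 1.95 and 1.64 on C in CEBPB(V285A). Modified arrays were all above those on C, with 5mC the highest. It fell by 74.0 Z on 5hmC relative to 5mC (limma adjusted p = 2.5e-10) and rose by 92.9 Z on 5mC over C (limma adjusted p = 3.6e-12). On 5hmC over C it rose by 18.9 Z (limma adjusted p = 0.016), lost with file numbers as a random block (adjusted p = 0.18). It was also lost without replicate 1 on 5hmC (11.9 Z, limma adjusted p = 0.17) and without replicate 1 or 2 on C (adjusted p = 0.094 and 0.079). In CREB1 it read 18.7 and 19.6 on 5hmC, 15.5 on 5mC, and 0.388 and 1.06 on C.

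Within a group, nearly all single mismatches lay below the forward octamer wherever the octamer itself was high. On both arrays of CREB1 on 5hmC all 24 mismatches were below it, with medians of 4.32 and 6.24 Z over the 24. On 5mC 23 were below it in CREB1, with T4C above. In CEBPB(V285A) 23 of 24 were below it on every array, with G2T above on 5hmC and T4C above on 5mC and C. In CREB1 on C 20 and 22 were below, and in CREB1(A297V) 12 to 22 on 5hmC, 22 and 20 on 5mC, and 21 and 22 on C. The trend fit gave large SEs here too. It called 4 of 24 mismatches lower in CREB1 on 5hmC, 3 in CEBPB(V285A) on 5hmC and 2 on 5mC, where 12.5%, 14.3% and 17.8% of all 778016 single-substitution pairs were called. Without the trend it called 24, 23 and 22 lower (12.4%, 14.2% and 17.7% of all pairs), and on log2 intensities likewise 24, 23 and 22. For CEBPB(V285A) on C (16.7% of all pairs) and CREB1 on 5mC (2.65%) the trend fit called 0 (1 and 0 at an unadjusted p under 0.05), the fit without it 22 in each and that on log2 intensities 22 and 23. It called no forward mismatch in CEBPB on 5hmC (8.73% of all pairs), where log2 intensities called 21 lower, or in CREB1 on C (12.5%), where they called 1 higher and 2 lower. At an unadjusted p under 0.05 limma with the trend held 0 of 24 there for CEBPB and 1 for CREB1, and the asinh scale called 18 and 9. In CREB1(A297V) the trend fit called none on any form, with 0 at an unadjusted p under 0.05 (all pairs called: 20.6% for 5hmC, 9.82% for 5mC, 7.50% for C). In the same order log2 intensities called 0, 5 and 3 and the asinh scale 15, 12 and 10.

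By position, the highest mismatches stood at positions 1, 2 and 4 in CEBPB(V285A) on 5mC. There the highest of the 3 mismatches averaged 94.7 Z at position 1, 186 at position 2, 21.2 at position 3 and 221 at position 4. At positions 5 to 8 it averaged 5.89, 17.4, 6.78 and 7.99. In CREB1 on 5hmC the highest at positions 1 to 4 averaged 19.2, 27.6, 8.82 and 76.4 Z, and those at positions 5 to 8 averaged 3.51, 26.1, 8.85 and 14.5. A8T had 12.0 and 17.0 in CREB1 on 5hmC, 5.83 on 5mC, and 2.73 and 3.34 on C. It was lower in CEBPB(V285A) than in CREB1 on 5hmC (difference -11.4 Z, limma adjusted p = 2.8e-06), and 8.68 Z higher on 5hmC than on the single 5mC array in CREB1 (limma adjusted p = 0.0023, not called on the asinh scale at 0.32). T4G, with a GpG centre, averaged 10.6 in CREB1 on 5hmC and was lower in CEBPB(V285A) (difference -7.92 Z, limma adjusted p = 5.4e-04, not called on the asinh scale). T4A, whose centre is ApG, averaged 0.532 there.

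Exchanging the C of GCAA gives the members with no modifiable base on the modified strand of the octamer itself, although the rest of their probes still hold C. C6T, TGATGTAA, which has the GTAA half-site of the PAR bZIP factors, had Z-scores of 49.8 and 38.5 on 5hmC, 13.3 and 21.4 on 5mC, and 30.0 and 29.4 on C in CEBPB(V285A). The 5mC arrays were the lowest, and C6T rose by 26.8 Z on 5hmC relative to 5mC (limma adjusted p = 7.7e-04, but 0.35 on log2 intensities). In CREB1 it read 28.3 and 23.8 on 5hmC, 4.80 on 5mC, and 3.79 and 5.75 on C, a rise of 21.3 Z on 5hmC over C (limma adjusted p = 0.0073, lost after quantile normalization at 0.14 and with file numbers as a random block at 0.10). That call was also lost without replicate 1 on 5hmC (limma adjusted p = 0.084) or on C (adjusted p = 0.074). C6T was the highest forward mismatch of CREB1(A297V) on 5hmC, with 7.19, 9.49, 5.85 and 8.15 on 5hmC, 4.93 and 3.92 on 5mC, and 7.48 and 7.03 on C, and there it exceeded the octamer on every array. C6A, the form in the Asns window, had 3.85 and 3.33 in CREB1 on 5hmC, 0.625 on 5mC, and 0.894 and 0.895 on C, a rise of 2.70 Z on 5hmC over C (limma adjusted p = 0.032). C6G had 2.50 and 2.92 in CREB1 on 5hmC, 1.42 on 5mC, and 0.772 and 0.783 on C, a rise of 1.94 Z on 5hmC over C (limma adjusted p = 0.025). In CREB1 all 3 members without C were thus called higher on 5hmC than on C, where 4.38% of all 8-mers were called higher. The calls of C6A and C6G were not followed under the alternatives. In CEBPB(V285A) none of the 3 was called on 5hmC against C (limma adjusted p = 0.63 for C6A, 0.59 for C6G and 0.072 for C6T). There 2.25% of all 8-mers were called higher.

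In the reverse orientation several mismatches exceeded their octamer. TTGCATCA was overtaken by A5G (by 69.3 Z, limma adjusted p = 1.5e-14), C7A (41.3 Z, limma adjusted p = 1.4e-11) and G3A (22.1 Z, limma adjusted p = 5.6e-12) in CEBPB(V285A) on C, and the other 21 were called lower. On 5mC 4 were called higher in CEBPB(V285A) and 20 lower, the highest being C7A, T6A and A5G at means of 30.9, 17.7 and 16.0 Z. On 5hmC 2 were higher, C7A (33.2 Z) and T6A (3.06 Z), and 18 lower. Of all single-substitution pairs 14.3% were called in this mutant on 5hmC, 17.8% on 5mC and 16.7% on C. The share of all pairs called follows each count in parentheses. In CREB1 the counts of higher and lower were 2 and 0 on 5hmC (12.5%), 1 and 0 on 5mC (2.65%), and 2 and 15 on C (12.5%). Those of CREB1(A297V) were 0 and 2 on 5hmC (20.6%), 0 and 3 on 5mC (9.82%), and 1 and 2 on C (7.50%). CEBPB on 5hmC had 0 and 11 (8.73%). T6A, which restores TTGCAA, was the highest reverse mismatch of CREB1 on both modified forms. It had 7.71 and 7.07 on 5hmC, 5.12 on 5mC, and 1.62 and 0.984 on C, a rise of 6.08 Z on 5hmC over C (limma adjusted p = 0.0016). G3A had 3.76 and 7.28 on 5hmC, 9.59 and 13.8 on 5mC, and 37.9 and 38.1 on C in CEBPB(V285A). It fell by 32.5 Z on 5hmC (limma adjusted p = 2.8e-10) and fell by 26.3 Z on 5mC (limma adjusted p = 2.1e-09).

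Counted over all 50 members, 5hmC against C in CREB1 called 22 higher and 2 lower, where 4.38% and 5.58% of all 65126 tested 8-mers were called in those directions. The total of 24 was 12 when CREB1 on 5hmC lost replicate 2 and 14 when CREB1 on C lost replicate 1. Of the 22, 20 were forward members, and the other 2 were T6A and C4T of the reverse octamer. CEBPB(V285A) had 17 higher and 8 lower on 5mC against C (3.05% and 3.52% of all 8-mers), and 11 higher and 8 lower on 5hmC against C (2.25% and 4.90%). The 5hmC total was 11 when replicate 1 of the mutant on C was left out. The higher ones were forward except for reverse T6A and T6C on 5mC and reverse T6A on 5hmC. All of the lower ones in these 3 comparisons were reverse members. In CREB1 5mC against C called 0 higher and 1 lower (0.441% and 0.524%), the 1 being reverse T1A, at 1.57 on 5mC and 5.08 and 4.51 on C, a call lost when CREB1 on C lost replicate 1 (limma adjusted p = 0.091). In CREB1(A297V) limma called 0 of 50 on 5hmC against C (0.255% of all 8-mers) and 0 of 50 on 5mC against C (0.0399%). The counts at an unadjusted p under 0.05 were 3 and 2, and on log2 intensities 10 and 2 were called.

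Between the modified forms CREB1 had 6 members higher on 5hmC than on 5mC and 0 lower (1.37% and 0.837% of all 8-mers). CEBPB(V285A) had 3 higher and 16 lower on 5hmC against 5mC (1.94% and 3.87%). The totals were 3 for CREB1 without replicate 2 on 5hmC and 10 for CEBPB(V285A) without replicate 2 on 5mC. Between proteins, CEBPB(V285A) against CREB1 gave 5 higher and 8 lower on 5hmC (1.86% and 2.16%), 18 higher and 0 lower on 5mC (1.81% and 0.180%), and 7 higher and 0 lower on C (1.07% and 0.0399%). CREB1(A297V) against CREB1 gave 0 higher and 22 lower on 5hmC (2.49% and 6.34%), 0 and 1 on 5mC (0.184% and 0.534%), and 0 and 2 on C (0.107% and 1.62%). CEBPB(V285A) against CEBPB on 5hmC gave 13 higher and 0 lower (1.96% and 0.660%). CEBPB against CREB1 on 5hmC gave 0 higher and 16 lower (0.880% and 2.38%), with totals of 9 without replicate 2 of CEBPB and 8 without replicate 2 of CREB1.

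Whether the effect of a modified base differed between CEBPB(V285A) and CREB1 was tested as an interaction on the Z-score. For 5hmC the forward octamer's change was smaller in CEBPB(V285A) (difference -101 Z, limma adjusted p = 2.0e-04), and that difference was also called on log2 intensities (-4.81 log2, adjusted p = 5.9e-05). It was not called after quantile normalization (adjusted p = 0.18). In all, 1 member was higher and 11 lower for this contrast (0.345% and 1.84% of all 8-mers), a total that was 6 without replicate 1 of CREB1 on C. For 5mC, where CREB1 has 1 array and the p-value cannot measure its spread, the octamer's change in CEBPB(V285A) minus that in CREB1 was 120 Z on the Z-score (limma adjusted p = 6.7e-05), with 9 members higher and 3 lower (0.840% and 0.330%). The sign turned on 3 other scales, with no call: the log2 intensities gave -1.20 (adjusted p = 0.50) and called no member, and the asinh and quantile scales called none either. At an unadjusted p under 0.05 limma on the log2 intensities held 7 members.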

How the data were processed

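Protein binding to DNA was measured on 21 arrays, which the labels put in 10 groups of protein and cytosine form. The deposited score of each 8-mer on each array is the authors' Z-score, per the file headers, and 10 columns of that table matched no sample analysed here and were not used. The probe files hold the deposited intensity of each spot and of its local background, per the file headers. The software that made either is not given in the sources used here.

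The members and gene lists were chosen with earlier results of these data known. Named 8-mers were the octamer, its reverse complement and T4C with its complement in every comparison. To these came up to 3 called members with the largest rise and fall per comparison whose arrays did not overlap, the 3 highest mismatches per group and orientation, all members without C, and the palindromes TGACGTCA, TTGCGCAA and TTACGTAA as levels.

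Per the labels, the second strand was made by extending a primer with the stated cytosine. On 21 of 21 arrays the deposited 8-mer scores followed the probe intensities best when the 8-mer was read backwards along the printed probe (r 0.603 to 0.986 across 8-mers, other readings at most 0.818). Names were therefore complemented base by base to give the modified strand from 5′ to 3′.

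limma 3.58.1 in R 4.3.3 was fitted to the Z-scores of all 21 arrays, with a mean-variance trend and Benjamini-Hochberg adjustment over all features (threshold 0.05). The 409 8-mers carried by no probe were left out, and 65126 were tested between groups. Pairs in opposite orientation (32230) and pairs at 1 substitution (778016) were fitted as within-array differences. The test of a shift in the T4C difference and the fit without the trend were chosen after seeing the data, since the trend gave pairs with very high means standard errors above the spread between arrays. Alternatives were the asinh of the Z-scores, log2 intensities after normexp correction (offset 50), quantile normalization, the replicate number or the file number as a block, a minimum of 8 probes, the 9 arrays under 1 file number, replicate 4 alone for CREB1(A297V) on 5hmC (also chosen after seeing the data), and leaving out each array. Of the probes, 863 carried a member and 7 carried 2 or more. The number of arrays per group limits the precision. Scripts were checked on simulated data.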

Additional observations from a re-analysis of the deposited data

Results flagged for a closer look

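Over the 4 arrays of CREB1(A297V) on 5hmC, all 50 members were looked at for an array far from the other 3, and 2 were found, where chance gives about 1 in 20. Reverse A5G read 0.687 on replicate 2 and -0.390 to -0.337 on the others. Reverse A8C read 2.41 on replicate 4 and -1.46 to -1.17 on the others.

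The effect of the modified base differed between CEBPB(V285A) and CREB1 for the members that follow, each tested with limma as the effect in CEBPB(V285A) minus that in CREB1. For 5hmC against C the forward octamer differed by -101 Z (adjusted p = 2.0e-04) and T4C by -64.2 Z (adjusted p = 0.039). The T4C difference was not called on the asinh scale (limma adjusted p = 0.060), after quantile normalization (0.36), with the replicate block (0.084), with file numbers as a random block (0.43), with at least 8 probes (0.065) or with replicate 4 alone for CREB1(A297V) on 5hmC (0.054). It was also not called without any 1 of 8 arrays, which were all 5 of CREB1, replicate 1 of CEBPB(V285A) on C, its replicate 2 on 5mC and replicate 3 of CREB1(A297V) on 5hmC (limma adjusted p = 0.055 to 0.28). G2T went the other way with 119 Z (limma adjusted p = 0.019), a sign that turned on the asinh scale and on log2 intensities, with the opposite sign called on the log2 intensities (adjusted p = 0.026). It was not called with file numbers as a random block (limma adjusted p = 0.29), after quantile normalization (0.077), or without any 1 array of CREB1 on C or on 5hmC (limma adjusted p = 0.053 to 0.093). The reverse octamer differed by -10.5 Z (limma adjusted p = 5.4e-05) and reverse A5G by -65.6 Z (adjusted p = 2.4e-06). On the asinh scale neither was called (limma adjusted p = 0.62 and 0.55), and after quantile normalization neither the reverse nor the forward octamer was (adjusted p = 0.18 each). For 5mC against C the forward octamer differed by 120 Z (limma adjusted p = 6.7e-05), T4C by 124 Z (adjusted p = 2.9e-04) and G2T by 138 Z (adjusted p = 0.020). The G2T difference was not called without either array of CREB1 on C or replicate 2 of CEBPB(V285A) on 5mC (limma adjusted p = 0.056 to 0.085). The signs of the octamer and of G2T turned here too on the asinh scale and on log2 intensities. Among reverse members, A5G differed by -53.6 Z (limma adjusted p = 5.5e-05), G3A by -22.9 Z (adjusted p = 1.3e-04) and the reverse octamer by -8.93 Z (adjusted p = 9.2e-04). CREB1 on 5mC is 1 array, whose spread these p-values cannot measure. None of the 6 differences for 5mC was called on the asinh scale, on log2 intensities or after quantile normalization, and that of G2T was not called with file numbers as a random block (limma adjusted p = 0.095) or with replicate 4 alone for CREB1(A297V) on 5hmC (0.055). The cytosine forms of these proteins lie under different file numbers, except CREB1 on 5mC and C, so the form and the file number cannot be told apart here.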

How the results depend on the processing

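Of the values followed under the alternatives, 3846 kept their call or lack of it, 192 were no longer called and 121 became called. Another 12 changed sign with a call in the reported or the alternative fit. Changes of sign with no call in either fit are among the 3846. Of the counts of calls, 1176 lay within 1.5 times the reported count and 212 did not. The causes of these changes were not tested. The fits without the trend and with replicate 4 alone were chosen after seeing the data. Groups of 1 to 4 arrays and 5mC in CREB1 on 1 array limit what can be called, as does the weak signal of 3 arrays of CREB1(A297V) on 5hmC.

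The values that changed sign with a call in the reported or the alternative fit were those of 8 results. Changes of sign with no call in either fit are not listed. For the 5hmC effect in CEBPB(V285A) minus that in CREB1, G2T was -1.98 on the asinh scale and -1.87 on log2 intensities. For the 5mC effect the octamer was -1.21 on the asinh scale, -1.20 on log2 intensities and -1.79 Z after quantile normalization. G2T was -1.51 and -0.640 on the first 2 of these scales, and on the asinh scale reverse G3A was 0.0651 and reverse A5G 0.263. Reverse C7A in CEBPB(V285A) on 5hmC against C was 10.0 Z after quantile normalization. C6T in CEBPB(V285A) against CREB1 on 5hmC was -0.0659 on log2 intensities. The shift of T4C minus the octamer in CREB1 on 5mC against C was -1.74 on log2 intensities.

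In what follows the number in parentheses is the reported count.

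On the asinh scale the members called numbered 3 (1) for CREB1 5mC against C, 15 (25) for CEBPB(V285A) 5mC against C and 10 (19) for CEBPB(V285A) 5hmC against C. Other counts were 2 (0) for CREB1(A297V) 5hmC against C, 1 (6) for CREB1 5hmC against 5mC and 4 (19) for CEBPB(V285A) 5hmC against 5mC. Further counts were 4 (18) for CEBPB(V285A) 5mC against CREB1 5mC, 4 (13) for CEBPB(V285A) 5hmC against CREB1 5hmC and 5 (1) for CREB1(A297V) 5mC against CREB1 5mC. They were 0 (12) for the 5mC effect in CEBPB(V285A) against that in CREB1 and 1 (12) for the 5hmC effect in CEBPB(V285A) against that in CREB1. The orientation pairs called numbered 5 (3) for CREB1 C, 1 (4) for CEBPB(V285A) C and 6 (0) for CREB1(A297V) C. Other counts were 4 (1) for CREB1(A297V) 5mC, 3 (0) for CEBPB 5hmC and 8 (5) for CREB1(A297V) 5hmC. The pairs with a called orientation shift numbered 8 (17) for CEBPB(V285A) 5mC against C and 2 (9) for CEBPB(V285A) 5hmC against C. The called mismatches numbered 9 (0) forward in CREB1 on C, 21 (0) forward in CEBPB(V285A) on C and 10 (0) forward in CREB1(A297V) on C. Other counts were 8 (3) reverse in CREB1(A297V) on C, 16 (0) forward in CREB1 on 5mC and 0 (1) reverse in CREB1 on 5mC. Further counts were 21 (2) forward in CEBPB(V285A) on 5mC, 12 (0) forward in CREB1(A297V) on 5mC and 9 (3) reverse in CREB1(A297V) on 5mC. They were 18 (0) forward in CEBPB on 5hmC, 7 (11) reverse in CEBPB on 5hmC and 23 (4) forward in CREB1 on 5hmC. The remaining counts were 21 (4) forward in CEBPB(V285A) on 5hmC, 15 (0) forward in CREB1(A297V) on 5hmC and 10 (2) reverse in CREB1(A297V) on 5hmC.

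On background-corrected log2 intensities the members called numbered 12 (1) for CREB1 5mC against C, 2 (0) for CREB1(A297V) 5mC against C and 10 (0) for CREB1(A297V) 5hmC against C. Other counts were 15 (6) for CREB1 5hmC against 5mC, 16 (7) for CEBPB(V285A) C against CREB1 C and 21 (13) for CEBPB(V285A) 5hmC against CREB1 5hmC. Further counts were 4 (2) for CREB1(A297V) C against CREB1 C, 14 (1) for CREB1(A297V) 5mC against CREB1 5mC and 25 (16) for CEBPB 5hmC against CREB1 5hmC. They were 0 (12) for the 5mC effect in CEBPB(V285A) against that in CREB1 and 32 (12) for the 5hmC effect in CEBPB(V285A) against that in CREB1. The orientation pairs called numbered 6 (3) for CREB1 C, 9 (4) for CEBPB(V285A) C and 10 (0) for CREB1(A297V) C. Other counts were 18 (7) for CREB1 5mC, 9 (1) for CREB1(A297V) 5mC and 7 (0) for CEBPB 5hmC. Further counts were 1 (5) for CREB1(A297V) 5hmC. The pairs with a called orientation shift numbered 9 (1) for CREB1 5mC against C, 1 (0) for CREB1(A297V) 5mC against C and 6 (0) for CREB1(A297V) 5hmC against C. The called mismatches numbered 3 (0) forward in CREB1 on C, 23 (0) forward in CEBPB(V285A) on C and 3 (0) forward in CREB1(A297V) on C. Other counts were 13 (3) reverse in CREB1(A297V) on C, 23 (0) forward in CREB1 on 5mC and 2 (1) reverse in CREB1 on 5mC. Further counts were 22 (2) forward in CEBPB(V285A) on 5mC, 5 (0) forward in CREB1(A297V) on 5mC and 9 (3) reverse in CREB1(A297V) on 5mC. They were 21 (0) forward in CEBPB on 5hmC, 17 (11) reverse in CEBPB on 5hmC and 24 (4) forward in CREB1 on 5hmC. The remaining counts were 6 (2) reverse in CREB1 on 5hmC, 24 (4) forward in CEBPB(V285A) on 5hmC and 11 (20) reverse in CEBPB(V285A) on 5hmC. Other counts were 0 (2) reverse in CREB1(A297V) on 5hmC.

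After quantile normalization the members called numbered 3 (1) for CREB1 5mC against C, 13 (25) for CEBPB(V285A) 5mC against C and 12 (19) for CEBPB(V285A) 5hmC against C. Other counts were 1 (0) for CREB1(A297V) 5hmC against C, 7 (19) for CEBPB(V285A) 5hmC against 5mC and 2 (7) for CEBPB(V285A) C against CREB1 C. Further counts were 3 (18) for CEBPB(V285A) 5mC against CREB1 5mC, 4 (1) for CREB1(A297V) 5mC against CREB1 5mC and 0 (12) for the 5mC effect in CEBPB(V285A) against that in CREB1. They were 4 (12) for the 5hmC effect in CEBPB(V285A) against that in CREB1.

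With file numbers as a random block the members called numbered 10 (24) for CREB1 5hmC against C, 10 (19) for CEBPB(V285A) 5hmC against C and 11 (19) for CEBPB(V285A) 5hmC against 5mC. Other counts were 4 (7) for CEBPB(V285A) C against CREB1 C, 8 (13) for CEBPB(V285A) 5hmC against CREB1 5hmC and 2 (1) for CREB1(A297V) 5mC against CREB1 5mC. Further counts were 8 (13) for CEBPB(V285A) 5hmC against CEBPB 5hmC and 6 (12) for the 5hmC effect in CEBPB(V285A) against that in CREB1.

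Among the 9 arrays sharing a file number the members called numbered 7 (1) for CREB1 5mC against C, 1 (2) for CREB1(A297V) C against CREB1 C and 8 (1) for CREB1(A297V) 5mC against CREB1 5mC.

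Without the mean-variance trend the members called numbered 4 (1) for CREB1 5mC against C and 4 (1) for CREB1(A297V) 5mC against CREB1 5mC. The pairs with a called orientation shift numbered 3 (1) for CREB1 5mC against C. The called mismatches numbered 22 (0) forward in CEBPB(V285A) on C, 22 (0) forward in CREB1 on 5mC and 22 (2) forward in CEBPB(V285A) on 5mC. Other counts were 24 (4) forward in CREB1 on 5hmC and 24 (4) forward in CEBPB(V285A) on 5hmC.

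With replicate 4 alone for CREB1(A297V) on 5hmC the members called numbered 1 (0) for CREB1(A297V) 5hmC against C, 3 (1) for CREB1(A297V) 5mC against CREB1 5mC and 14 (22) for CREB1(A297V) 5hmC against CREB1 5hmC.

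Over 36 pairs of groups the correlation of same-numbered deviations ran from -0.38 to 0.22, with 9 above 0.1. Whether replicate numbers pair the arrays was not tested. With the replicate block 2 (1) members were called for CREB1(A297V) 5mC against CREB1 5mC, and no other count moved by over 1.5 times. Of single values, the block ended the calls of the forward octamer in CEBPB(V285A) against CREB1 on C (limma adjusted p = 0.090), of T4C in the 5hmC effect between these proteins (0.084), of T4C in CEBPB(V285A) against CEBPB on 5hmC (0.073) and of C6T in CEBPB(V285A) against CREB1 on 5hmC (0.060).

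Leaving out 1 array at a time left 26 counts within 1.5 times throughout. Among members called, CREB1 5hmC against C ran from 12 to 27, with 12 without CREB1 5hmC replicate 2 and 14 without CREB1 C replicate 1. CEBPB(V285A) 5hmC against C ran from 11 (without CEBPB(V285A) C replicate 1) to 20, and 5hmC against 5mC from 10 (without CEBPB(V285A) 5mC replicate 2) to 20. CREB1 5hmC against 5mC ran from 3 (without CREB1 5hmC replicate 2) to 8. CEBPB(V285A) against CREB1 on C ran from 4 (without CREB1 C replicate 1) to 8, and the 5hmC effect between them from 6 (without the same array) to 14. CEBPB against CREB1 on 5hmC ran from 8 (without CREB1 5hmC replicate 2) to 17, with 9 without CEBPB 5hmC replicate 2. CREB1 5mC against C ran from 0 (without CREB1 C replicate 1) to 2 (without any 1 array of CEBPB(V285A)). CREB1(A297V) against CREB1 ran from 0 to 2 on C, where any 1 array of CREB1(A297V) C, CREB1 C or CREB1 5hmC lowered it. On 5mC it ran from 0 (without CREB1(A297V) 5mC replicate 2) to 3 (without either CEBPB(V285A) 5hmC array), with 2 without either CREB1 5hmC array.

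Orientation pairs ran from 0 to 4 in CREB1 C and from 0 to 6 in CEBPB(V285A) C, with 0 without either array of the group itself. They ran from 0 to 3 in CREB1(A297V) C (3 without CREB1(A297V) 5hmC replicate 1, 2 without its replicate 4, and 1 without any array of CEBPB(V285A) 5mC, CEBPB(V285A) 5hmC or CEBPB 5hmC). In CREB1(A297V) 5mC they ran from 0 (without either own array) to 3 (without CREB1(A297V) 5hmC replicate 4), with 2 without its replicate 1 or 2 or either CEBPB(V285A) 5mC array. In CEBPB 5hmC they ran from 0 to 1 (without either CEBPB(V285A) 5hmC array or CREB1(A297V) 5hmC replicate 4). In CREB1(A297V) 5hmC they ran from 1 (without its replicate 2) to 7. Shifts in CREB1 5mC against C ran from 0 (without either CREB1 C array) to 3 (without either CEBPB(V285A) 5mC array), with 2 without either 5hmC array of CREB1 or CEBPB(V285A).

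Forward mismatches called ran from 2 to 21 in CEBPB(V285A) 5mC. They were 21 and 17 without CREB1 5hmC replicates 2 and 1, 13 and 7 without CEBPB(V285A) 5hmC replicates 2 and 1, and 8 and 7 without CEBPB(V285A) 5mC replicates 2 and 1. In CREB1 5hmC they ran from 4 to 10, with 10 without either CEBPB(V285A) 5mC array and 7 without CEBPB(V285A) 5hmC replicate 2. In CEBPB(V285A) C they ran from 0 to 3, with 3 without either CEBPB(V285A) 5hmC array and 1 without either array of CEBPB(V285A) 5mC or CREB1 5hmC. In CREB1 C they ran from 0 to 1 (without either CEBPB(V285A) 5hmC array). In CREB1 5mC they ran from 0 to 1 (without either CEBPB(V285A) 5hmC array, CEBPB(V285A) 5mC replicate 1 or CREB1 5hmC replicate 2).

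Reverse mismatches ran from 4 to 17 in CREB1 C, with 4 and 7 without its replicates 2 and 1, and from 0 (without either own array) to 14 in CEBPB 5hmC. In CREB1 5hmC they ran from 1 (without either own array) to 2. In CREB1(A297V) 5hmC they ran from 0 (without its replicate 4) to 4 (without either CREB1(A297V) 5mC array). In CREB1(A297V) C they ran from 0 to 5, with 0 and 1 without its replicates 2 and 1, 1 without either CREB1 5hmC array, and 5 without either CREB1(A297V) 5mC array or CREB1(A297V) 5hmC replicate 4. In CREB1(A297V) 5mC they ran from 0 (without either own array) to 5 (without either CEBPB(V285A) C array or CREB1(A297V) 5hmC replicate 1), with 1 without any array of CREB1 C, CREB1(A297V) C, CEBPB 5hmC or CREB1 5hmC.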
